A study of Mus musculus with 36 samples.

Results

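The zinc finger genes described here are those whose symbols run from Zfp600 to Zfp999 without a suffix letter. They were chosen by symbol alone, as every gene of the deposited annotation with such a symbol that also stands in the count table. The rule found 138 of the 24344 genes in the table. Of these, 136 had enough counts to be tested, and 20108 genes of the whole table did. Gencode lists 136 of the 138 as protein-coding and Zfp939 and Zfp783 as pseudogenes.

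RNA was sequenced from the mouse dorsal vagal complex, a group of brainstem nuclei that receive and send signals through the vagus nerve. The 36 libraries came from wild-type mice of C57BL/6J, the strain of the reference genome, CAST/EiJ, derived from wild castaneus mice, and NZO/HlLtJ, an obese strain. Females and males of each strain ate either a control diet with 10% fat and fiber or a high-fat, high-sugar diet with 44% fat and fiber, called HFHS below, from 6 to 15 weeks of age. Each of the 12 groups held 3 libraries, so a strain has 12 and a strain on 1 diet has 6. The labels do not say whether libraries came from separate animals, so p-values measure the spread between libraries.

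Genes named Zfp encode proteins that carry zinc fingers, small folds held by a zinc ion, most often of the C2H2 type that reads DNA. Many of them also carry a KRAB domain, which binds the scaffold protein Trim28 and through it recruits the enzymes that silence chromatin. KRAB zinc finger genes sit in clusters that grew by duplication, their repertoires differ between species and between strains, and many of the proteins bind transposable elements.

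The 138 genes lie on 20 chromosomes, with 32 on chromosome 7, 19 on chromosome 17 and 16 on chromosome 8. A cluster is taken here as a run of at least 4 of them whose starts are no more than 1 Mb apart, and 61 genes fall into 10 such clusters. Near-identical relatives matter for the counts, since a read from shared sequence can be assigned to either copy. Of the 138 genes, 34 shared no 50-base sequence of their exons with another gene, 18 shared 20% or more and 6 shared 50% or more.

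RefSeq promoter windows on GRCm38.p6, from 250 bases before to 50 after the annotated start, were found for 119 of the 138 genes. Their letters show how some of the genes are related. The longest run that the windows of Zfp808, Zfp935, Zfp932 and Zfp950 share with at most 1 variable base is ACCCTAANGGAGGTGCTC, where N is that base. These genes were picked after the windows had been compared. The run occurred on either strand in the windows of 7 of 27025 genes (0.0259%), and the only ones of the symbol range among the 7 are these 4. They are shown because they lie on 3 chromosomes and differ in how they vary between strains, as described below. The run is in capitals. The windows are chr13:62129640-62129939 on the plus strand for Zfp808, chr13:62466763-62467062 on the minus strand for Zfp935, chr5:109996260-109996559 on the plus strand for Zfp932, and chr19:61140791-61141090 on the minus strand for Zfp950.
Zfp808: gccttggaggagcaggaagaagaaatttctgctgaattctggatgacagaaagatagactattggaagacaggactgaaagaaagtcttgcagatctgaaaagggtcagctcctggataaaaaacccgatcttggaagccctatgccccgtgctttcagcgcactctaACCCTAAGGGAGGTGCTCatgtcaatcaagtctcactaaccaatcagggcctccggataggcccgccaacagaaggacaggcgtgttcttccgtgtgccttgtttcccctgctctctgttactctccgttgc
Zfp935: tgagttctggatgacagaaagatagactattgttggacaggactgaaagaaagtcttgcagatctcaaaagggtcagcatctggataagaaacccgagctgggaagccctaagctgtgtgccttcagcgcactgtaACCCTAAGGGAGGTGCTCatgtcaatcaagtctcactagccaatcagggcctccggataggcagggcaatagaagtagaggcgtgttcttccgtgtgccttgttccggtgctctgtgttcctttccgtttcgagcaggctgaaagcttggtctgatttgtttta
Zfp932: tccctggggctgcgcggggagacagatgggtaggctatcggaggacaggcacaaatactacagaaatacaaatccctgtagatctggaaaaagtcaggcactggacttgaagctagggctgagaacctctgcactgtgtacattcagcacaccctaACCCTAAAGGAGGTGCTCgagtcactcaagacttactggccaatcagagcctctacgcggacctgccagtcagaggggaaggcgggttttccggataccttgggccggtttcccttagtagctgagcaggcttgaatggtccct
Zfp950: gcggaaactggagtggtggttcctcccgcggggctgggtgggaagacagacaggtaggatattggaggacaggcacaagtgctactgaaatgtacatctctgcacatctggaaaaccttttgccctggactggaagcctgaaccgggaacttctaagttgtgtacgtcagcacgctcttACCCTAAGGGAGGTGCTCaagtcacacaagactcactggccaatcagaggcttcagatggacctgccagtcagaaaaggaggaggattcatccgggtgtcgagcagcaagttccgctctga
Aligned bases were identical at 89.1% between the Zfp808 and Zfp935 windows, and at 71.2% to 75.9% between the other pairs of the 4.

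The windows of Zfp783 (chr6:47942925-47943224, plus strand) and Zfp658 (chr7:43562120-43562419, plus strand) are shown because these genes had the largest fall in CAST/EiJ and the largest rise within a cluster in NZO/HlLtJ, both against C57BL/6J. Capitals mark the GC box GGGCGG and the CCAAT box on either strand, so that CCGCCC and ATTGG are matches on the other strand.
Zfp783: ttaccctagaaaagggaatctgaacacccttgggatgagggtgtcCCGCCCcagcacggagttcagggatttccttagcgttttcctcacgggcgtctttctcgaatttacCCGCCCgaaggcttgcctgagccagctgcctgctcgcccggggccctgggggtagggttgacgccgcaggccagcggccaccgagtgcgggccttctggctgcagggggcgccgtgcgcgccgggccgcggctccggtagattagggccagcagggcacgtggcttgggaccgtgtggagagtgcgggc
Zfp658: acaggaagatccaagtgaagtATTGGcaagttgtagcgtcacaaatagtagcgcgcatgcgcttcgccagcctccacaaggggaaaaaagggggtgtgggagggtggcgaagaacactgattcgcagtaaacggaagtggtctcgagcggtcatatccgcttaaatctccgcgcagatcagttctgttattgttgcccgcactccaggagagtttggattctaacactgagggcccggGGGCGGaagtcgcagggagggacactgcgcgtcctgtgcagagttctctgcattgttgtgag
Neither window holds the run of 18 bases, and their bases were 55.6% to 63.2% identical to those of the 4 windows above. Over all genes of the symbol range with a window, CCAAT was present in 58.0%, against 41.1% of all 27025 genes. The longer form CCAATCAG, which contains CCAAT, was present in 25 of the 119 against 4.70% of all genes. The ETS core TTCCGG stood in 33.6% against 16.7%, GGGCGG in 48.7% against 38.2%, and TATAAA in 7.56% against 15.7%, each counted on both strands. The median number of CpG dinucleotides was 13 per window for these genes and 7 for all genes. These matches describe the letters of the windows and do not mark binding sites.

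Levels are given as CPM, counts scaled to a library total of 1000000. Most of the genes were expressed at moderate levels in this tissue. The median over the 138 genes of the mean level was 12.9 CPM, against 11.2 CPM over all genes tested. Per kilobase of annotated exon, Zfp706 was highest at 31.4 CPM per kb. Zfp706, known for promoting the exit of embryonic stem cells from self-renewal, also had the highest level before division by length, 156 CPM. Zfp740 followed at 20.4 CPM per kb, Zfp664 at 18.04, Zfp869 at 10.3 and Zfp692 at 9.28 CPM per kb. At the low end were Zfp600 at 0.00604 CPM per kb, Zfp819 at 0.0457, Zfp872 at 0.0597, Zfp781 at 0.0795 and Zfp957 at 0.119 CPM per kb. Zfp600 and Zfp819 did not pass the filter on low counts. The table lists only genes with a value above 0 in 19 or more of the 36 libraries, so a gene expressed in a single strain only could not have been listed.

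Library totals ran from 22.03 to 49.61 M counts, M being mega. Among marker genes of the dorsal vagal complex, Dbh was at 3.58 to 45.4 CPM and Chat at 6.70 to 19.4 CPM over the libraries, and Gfral at 0.2745 CPM or less. Hox genes, which mark the caudal hindbrain, were nearly without reads in 3 male control libraries, with sums of 0.155 and 0.609 CPM in libraries 1 and 3 of CAST/EiJ and of 1.28 CPM in library 3 of NZO/HlLtJ, against 15.3 to 310.0 CPM in the other 33 libraries. Nnt and Gabra2, both known to be low in C57BL/6J, were at 17.8 to 22.3 and 34.7 to 46.5 CPM there, below every library of the other strains. Of 80 strain and diet differences of single genes that were refitted, each strain call lost without the 3 low-Hox libraries is given below. For the other strain differences of single genes this comparison is not given. The numbers of genes called between strains without these libraries are given only within the ranges over all alternative runs. NZO/HlLtJ male control 1 stood apart by pituitary transcripts, with Gh at 11680 CPM, Pomc at 3201 CPM and Prl at 2529 CPM, against at most 7.24, 2.73 and 14.9 CPM in the other 35 libraries. It held the highest NZO/HlLtJ value of 27 of the 138 genes. Without it the calls described next numbered 39, 81 and 61 in place of 41, 77 and 59, and all of 80 strain and diet differences of single genes that were refitted without it kept their direction and their side of the threshold.

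Strain differences were asked first, with a mean fitted for each of the 12 groups and averaged within a strain. A difference is a log2 fold change with its standard error (SE), and a gene is called when its Benjamini-Hochberg adjusted p over all 20108 genes is under 0.05 in edgeR's quasi-likelihood test. Between NZO/HlLtJ and C57BL/6J, 41 of the 136 tested Zfp600 to Zfp999 genes passed (30.1%), of which 27 were higher in NZO/HlLtJ and 14 lower, beside 23.8% of all genes. Between CAST/EiJ and C57BL/6J, 77 were called (56.6%), 50 higher and 27 lower in CAST/EiJ, beside 52.2% of all genes. Between NZO/HlLtJ and CAST/EiJ, 59 were called (43.4%), 26 of them higher in NZO/HlLtJ and 33 lower, beside 49.8% of all genes. The shares called were thus within 7 percentage points of the background in each comparison. The 3 comparisons share libraries and are not independent. Markers of other cell types differed between strains as well. All 3 oligodendrocyte markers were called lower in CAST/EiJ than in C57BL/6J, among them Mog (-0.42) and Mbp (-0.39), as were 3 of 5 red blood cell genes. Of 3 astrocyte markers only Aldh1l1 (-0.61) was called, and of 3 microglial markers only Cx3cr1 (-0.37). Both were lower in CAST/EiJ, while 1 of the 3 genes in each of these lists had a positive difference, not called. Against NZO/HlLtJ, Mbp and Mog were lower in CAST/EiJ too, by 0.30 and 0.49, while neither was called between NZO/HlLtJ and C57BL/6J. Their part in the differences of the zinc finger genes was not tested.

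Most of these differences were small. The median absolute log2 difference of the tested genes was 0.13 for NZO/HlLtJ minus C57BL/6J, 0.18 for CAST/EiJ minus C57BL/6J and 0.16 for NZO/HlLtJ minus CAST/EiJ, against 0.13, 0.23 and 0.22 over all genes. Called and past 2-fold were 6, 3 and 11 of the 136 (4.41%, 2.21% and 8.09%), beside 4.73%, 12.8% and 12.6% of all genes. The 194 tested genes from Zfp1 to Zfp599 had 62, 113 and 101 calls in the same order. Of the called genes, 41 of 41, 73 of 77 and 55 of 59 had the same sign in all 4 groups of sex and diet, which held for 92.2%, 92.0% and 85.4% of all called genes.

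**Figure D1:**
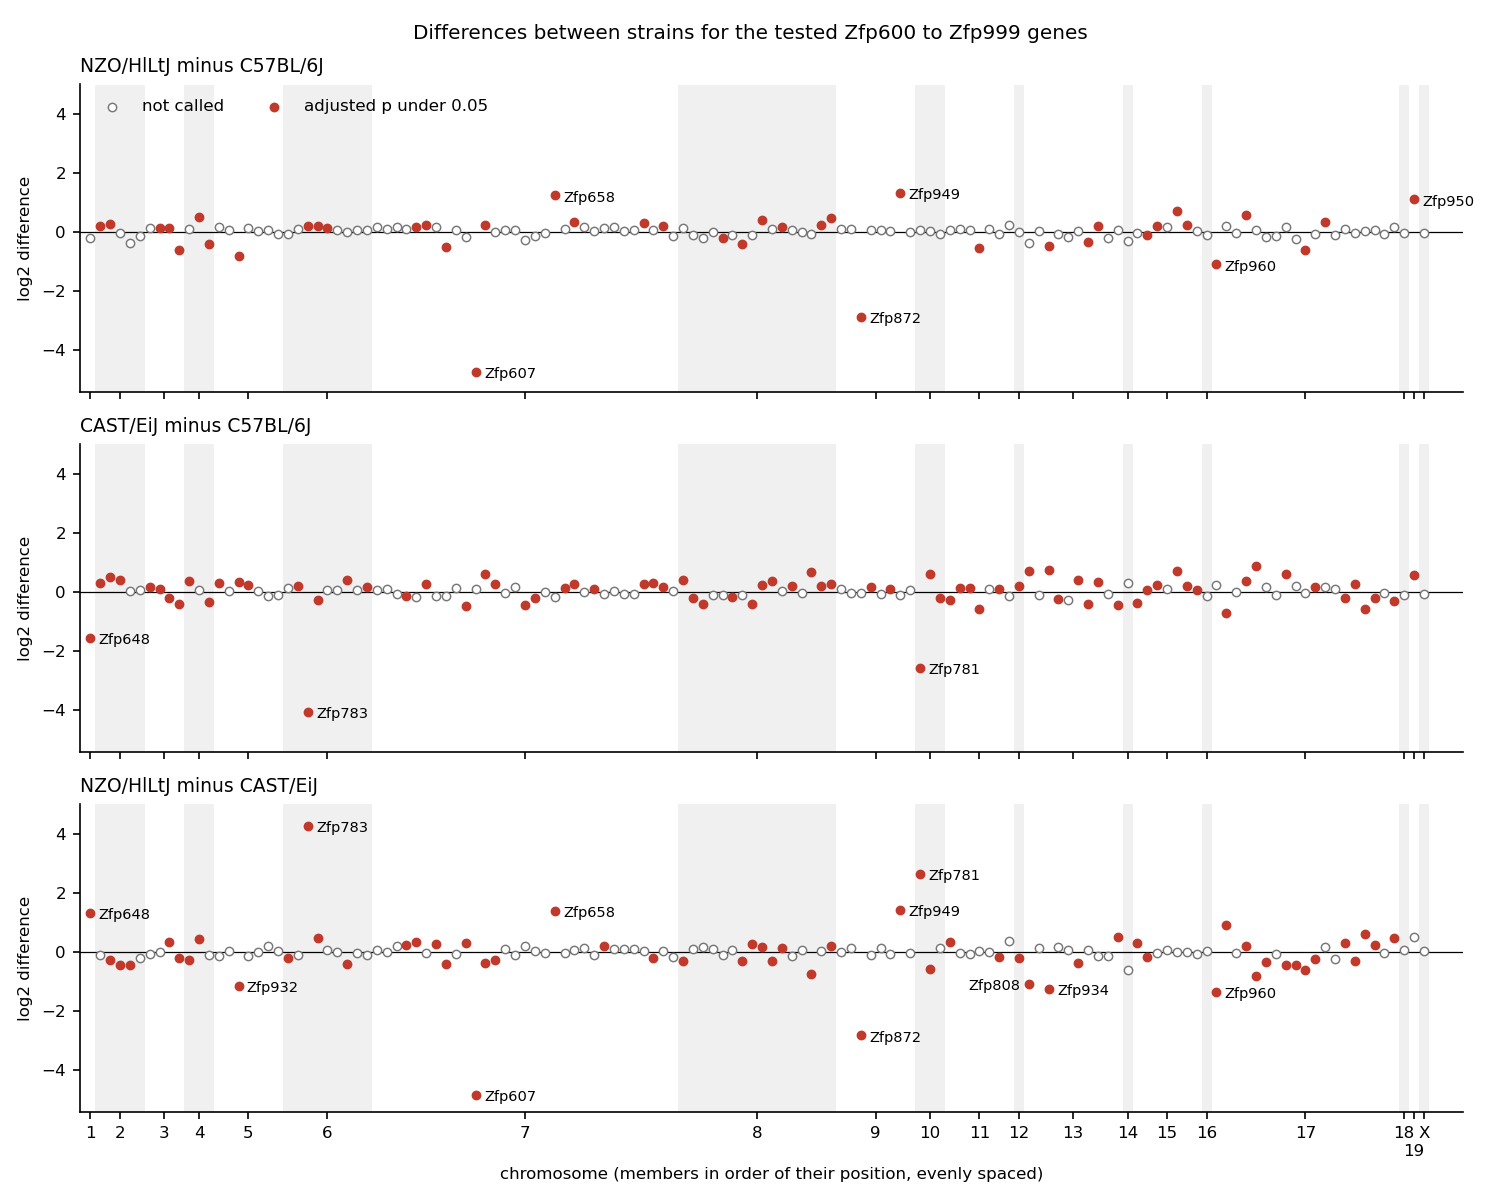
Log2 difference between strains (vertical axis) for the 136 tested genes in order of chromosome and position, evenly spaced (horizontal axis), with a panel for each pair of strains. Filled points were called, and those past 2-fold are named, with Zfp783 at -4.06 in CAST/EiJ and Zfp607 at -4.73 in NZO/HlLtJ as the extremes against C57BL/6J.

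A stricter view asks for which genes all 12 libraries of a strain lay above or below all 24 others. This held for 8 of the 136 genes (5.88%), beside 9.43% of all genes tested. CAST/EiJ stood below for Zfp783 and Zfp870, beside 4.31% of all genes, and above for 0 of the 136, beside 2.84%. NZO/HlLtJ stood above for Zfp658 and Zfp949, beside 0.661%, and below for Zfp607 and Zfp932, beside 0.492%. C57BL/6J stood above for Zfp867, beside 1.07%, and below for Zfp612, beside 0.522%. Without the 3 low-Hox libraries it held for 10 genes.

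Zfp783 (ENSMUSG00000072653; chromosome 6, 47943171 to 47955913, GRCm38) showed the widest gap of CAST/EiJ. Its level was 10.9, 12.9 and 16.3 CPM (lowest, median and highest of 12 libraries) in C57BL/6J and 11.3, 15.5 and 22.6 CPM in NZO/HlLtJ. In CAST/EiJ it was 0.583, 0.765 and 1.02 CPM. The CAST/EiJ libraries therefore lay more than 10 times below every library of the other strains, while those of the other strains overlapped. The highest NZO/HlLtJ value is that of the library rich in pituitary transcripts, and the next was 17.3 CPM. The difference was -4.06 (SE 0.09, adjusted p = 2.01e-25) against C57BL/6J, and NZO/HlLtJ was 4.27 higher than CAST/EiJ (SE 0.09, adjusted p = 1.14e-25). In bulk tissue, fewer cells of a type and less RNA per cell cannot be told apart. Zfp956 (ENSMUSG00000045466), which overlaps Zfp783 on the same strand and shares 6.55% of its 50-base sequences with it, ran from 10.8 to 17.5 CPM in CAST/EiJ and from 13.4 to 17.6 CPM in C57BL/6J, a difference of -0.26 (SE 0.07, adjusted p = 0.00114). Reads from the overlap of both genes could have been counted for either.

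Zfp607 (ENSMUSG00000020420; chromosome 7, 27857527 to 27880825), listed as Zfp607a in gencode, was nearly absent from NZO/HlLtJ. Its level was 0.883, 1.45 and 2.47 CPM (lowest, median and highest) in C57BL/6J and 1.04, 1.63 and 2.00 CPM in CAST/EiJ. In NZO/HlLtJ the highest library had 0.122 CPM, and the 12 libraries held 26 counts together. The ranges of NZO/HlLtJ and the other strains were far apart, and those of the other strains overlapped. The fitted differences, -4.73 (SE 0.30, adjusted p = 1.17e-13) against C57BL/6J and -4.84 (SE 0.30, adjusted p = 1.89e-14) against CAST/EiJ, rest on these few counts and move with the prior count of the fit. The relative Zfp780b, sharing 4.87% of the 50-base sequences of Zfp607, stood at 16.1 to 21.9 CPM in C57BL/6J and at 15.2 to 20.9 CPM in NZO/HlLtJ, and was not called (a difference of -0.05, adjusted p = 0.575).

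Zfp949 and Zfp658 were the largest rises in NZO/HlLtJ, and both share no 50-base sequence with another gene. Zfp949 (ENSMUSG00000032425; chromosome 9, 88548020 to 88571061) had 17.3, 22.4 and 25.4 CPM (lowest, median and highest) in C57BL/6J, 18.4, 19.8 and 29.2 CPM in CAST/EiJ and 50.6, 54.2 and 69.9 CPM in NZO/HlLtJ. Zfp658 (ENSMUSG00000056592; chromosome 7, 43562256 to 43575461), whose human counterpart is known as a zinc-sensitive regulator, had 5.24, 7.59 and 10.2 CPM in C57BL/6J, 4.73, 6.91 and 10.2 CPM in CAST/EiJ and 15.3, 18.02 and 23.4 CPM in NZO/HlLtJ. For both genes every NZO/HlLtJ library lay above all others, and the other strains overlapped. The 69.9 CPM of Zfp949 is from the library rich in pituitary transcripts, without which the highest was 59.2 CPM. The differences against C57BL/6J were 1.33 for Zfp949 (SE 0.06, adjusted p = 2.44e-18) and 1.25 for Zfp658 (SE 0.09, adjusted p = 3.15e-12). Against CAST/EiJ they were 1.43 and 1.41. The difference of CAST/EiJ from C57BL/6J was -0.09 (adjusted p = 0.158) and -0.16 (adjusted p = 0.146).

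Zfp932 (ENSMUSG00000066613; chromosome 5, 109996521 to 110010411), known as a KRAB zinc finger protein that represses endogenous retroviruses, stood at 3 levels. Its lowest, median and highest values were 20.5, 26.1 and 32.9 CPM in C57BL/6J, 25.5, 33.8 and 46.0 CPM in CAST/EiJ and 12.5, 15.9 and 17.8 CPM in NZO/HlLtJ. NZO/HlLtJ lay below all others, and C57BL/6J and CAST/EiJ overlapped. The differences were -0.79 (SE 0.08, adjusted p = 4.78e-09) for NZO/HlLtJ and 0.35 (SE 0.08, adjusted p = 0.000401) for CAST/EiJ, both against C57BL/6J. Its close relative Gm15446 shares 34.9% of the 50-base sequences of Zfp932, and how the counting split shared reads is not known. Gm15446 itself was 0.22 lower in NZO/HlLtJ (adjusted p = 0.0102) and 0.91 higher in CAST/EiJ (adjusted p = 1.80e-13) than in C57BL/6J. Counts summed over both genes gave -0.50 (adjusted p = 8.85e-07) and 0.64 (adjusted p = 2.25e-09), with the same directions.

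The remaining genes with a strain apart had differences under 2-fold. Zfp870 (chromosome 17) ran from 8.49 to 10.0 CPM in CAST/EiJ, from 10.9 to 15.4 CPM in C57BL/6J and from 11.1 to 16.3 CPM in NZO/HlLtJ, a difference of -0.56 for CAST/EiJ against C57BL/6J (SE 0.06, adjusted p = 6.13e-10). Zfp867 (chromosome 11) ran from 8.83 to 11.6 CPM in C57BL/6J and reached at most 8.68 CPM in CAST/EiJ and 8.54 CPM in NZO/HlLtJ, with differences from C57BL/6J of -0.58 and -0.53. Zfp612 (chromosome 8) ran from 35.1 to 42.4 CPM in C57BL/6J and was at or above 42.8 CPM in CAST/EiJ and 46.8 CPM in NZO/HlLtJ, with differences of 0.29 and 0.49. For Zfp867 and Zfp612 the gap between C57BL/6J and the nearest library of another strain was under 0.5 CPM.

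**Figure D2:**
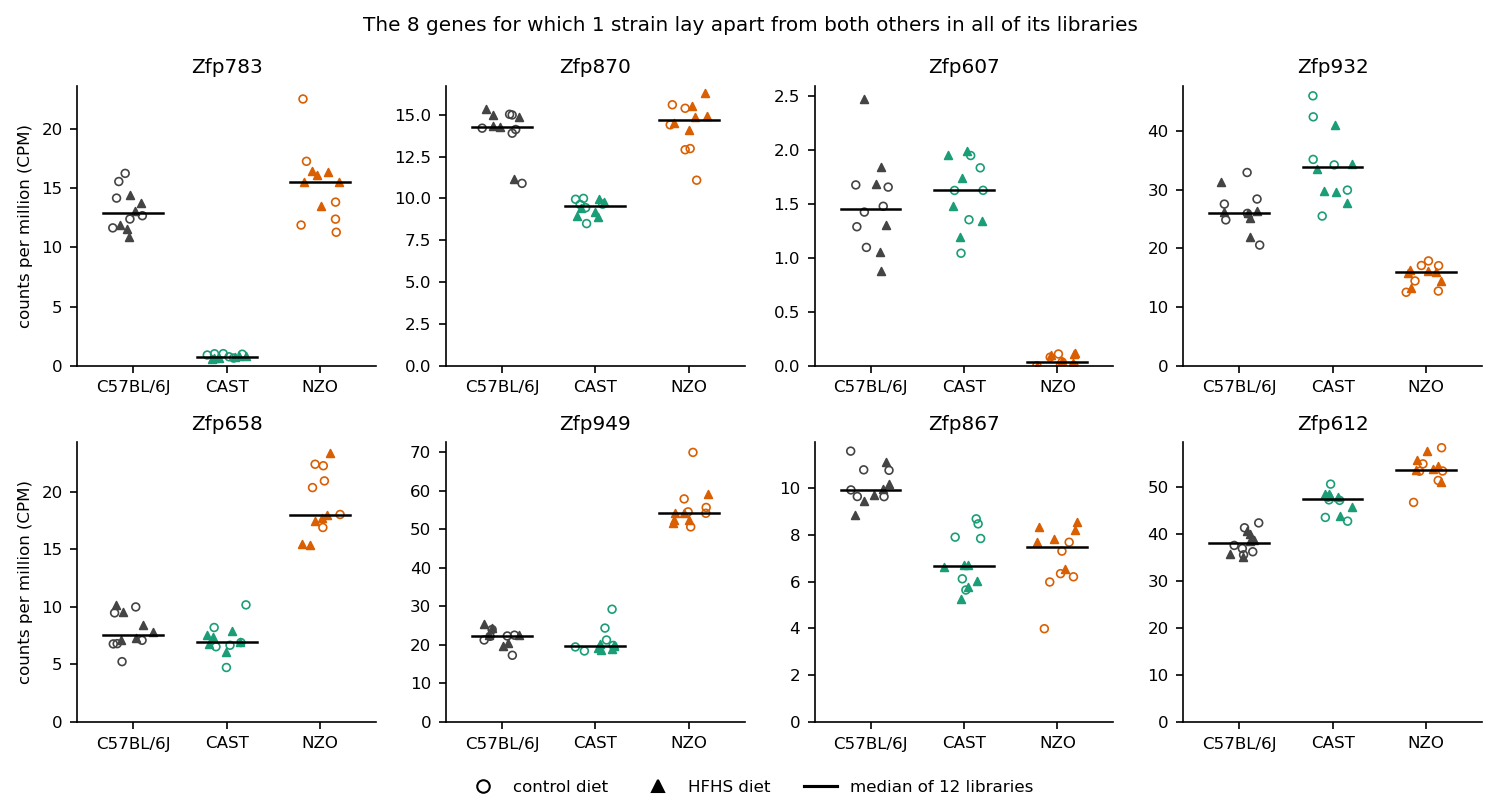
Level in CPM (vertical axis, from 0) of the 8 genes in each library, by strain (horizontal axis; CAST is CAST/EiJ and NZO is NZO/HlLtJ), with open circles for the control diet, filled triangles for HFHS and a line at the median of 12 libraries. All 12 libraries of a strain lie apart from the other 24 for each gene, widely for Zfp783 (at most 1.02 CPM in CAST/EiJ) and Zfp607 (at most 0.122 CPM in NZO/HlLtJ) and narrowly for Zfp867 and Zfp612.

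Several further genes past 2-fold are close relatives of other genes or lie near the detection limit. Zfp960 (chromosome 17, 17064113 to 17089628) had 2.37, 3.98 and 4.57 CPM (lowest, median and highest) in C57BL/6J, 3.09, 4.82 and 6.42 CPM in CAST/EiJ and 1.28, 1.82 and 2.39 CPM in NZO/HlLtJ. The NZO/HlLtJ range met that of C57BL/6J only at its edge, and the difference was -1.09 (SE 0.12, adjusted p = 9.84e-09). Zfp97 shares 81.4% of its 50-base sequences, and the sum of both genes differed by -0.77 (adjusted p = 2.50e-08). Against CAST/EiJ the difference fell from -1.34 for Zfp960 alone to -0.76 for the sum.

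Zfp808 and Zfp934, both on chromosome 13 between 62 and 63 Mb, were high in CAST/EiJ. Zfp808 (ENSMUSG00000074867) had 2.22, 3.62 and 5.18 CPM (lowest, median and highest) in CAST/EiJ, 0.972, 2.37 and 3.35 CPM in C57BL/6J and 1.25, 1.72 and 2.92 CPM in NZO/HlLtJ. Zfp934 (ENSMUSG00000074865) had 1.91, 3.10 and 4.05 CPM in CAST/EiJ, 1.16, 1.97 and 2.37 CPM in C57BL/6J and 0.702, 1.37 and 1.86 CPM in NZO/HlLtJ. Their ranges overlapped between strains except for Zfp934 between CAST/EiJ and NZO/HlLtJ. NZO/HlLtJ was below CAST/EiJ by 1.08 for Zfp808 (adjusted p = 7.60e-07 in edgeR's test) and by 1.23 for Zfp934 (adjusted p = 1.74e-08). Zfp808 shares 19.6% of its 50-base sequences with Zfp934, and their sum gave a difference of -1.15 (adjusted p = 2.45e-09). Zfp935, which lies between them and whose promoter window is 89.1% identical to that of Zfp808, was not called in any strain comparison, with differences from C57BL/6J of 0.05 in NZO/HlLtJ and -0.10 in CAST/EiJ. All of the 50-base sequences of Zfp935 occur in other genes, 99.2% of them in Gm49359, which was not analysed here.

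Zfp872 (chromosome 9), Zfp648 (chromosome 1) and Zfp781 (chromosome 10) had large log2 differences at low levels. Zfp872 was at 0.126 CPM or less in NZO/HlLtJ, with 16 counts over its 12 libraries, and at 0.0317 to 0.543 CPM in C57BL/6J, with a fitted difference of -2.86 (SE 0.48, adjusted p = 2.44e-05). Zfp648, named after its values were seen, was at 0.087 to 0.298 CPM in CAST/EiJ and 0.0679 to 0.928 CPM in C57BL/6J, a difference of -1.55 (SE 0.27, adjusted p = 1.26e-05). The ranges of the compared strains overlapped for both genes.

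Zfp781 (ENSMUSG00000096718) shares 95% of its 50-base sequences with Gm3055, and the counts of the pair changed places between libraries. Zfp781 was at 2.28 and 1.29 CPM in 2 C57BL/6J libraries and at 0.197 CPM or less in the other 10. It was at 0.860 to 1.29 CPM in 5 NZO/HlLtJ libraries, at 0.138 CPM or less in the other 7, and at 0.087 CPM or less in CAST/EiJ. The libraries high in Zfp781 had at most 0.957 CPM of Gm3055, which reached 3.37 CPM in C57BL/6J and 1.93 CPM in NZO/HlLtJ elsewhere. The difference of Zfp781 between NZO/HlLtJ and C57BL/6J was 0.08 (adjusted p = 0.944), while the sum of the pair differed by -0.67 (adjusted p = 0.000109). For CAST/EiJ minus C57BL/6J, Zfp781 alone gave -2.57 (adjusted p = 0.000559), and the sum, at 0.605 to 1.30 CPM in CAST/EiJ and 1.97 to 3.57 CPM in C57BL/6J, gave -1.56 (adjusted p = 1.53e-11).

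**Figure D3:**
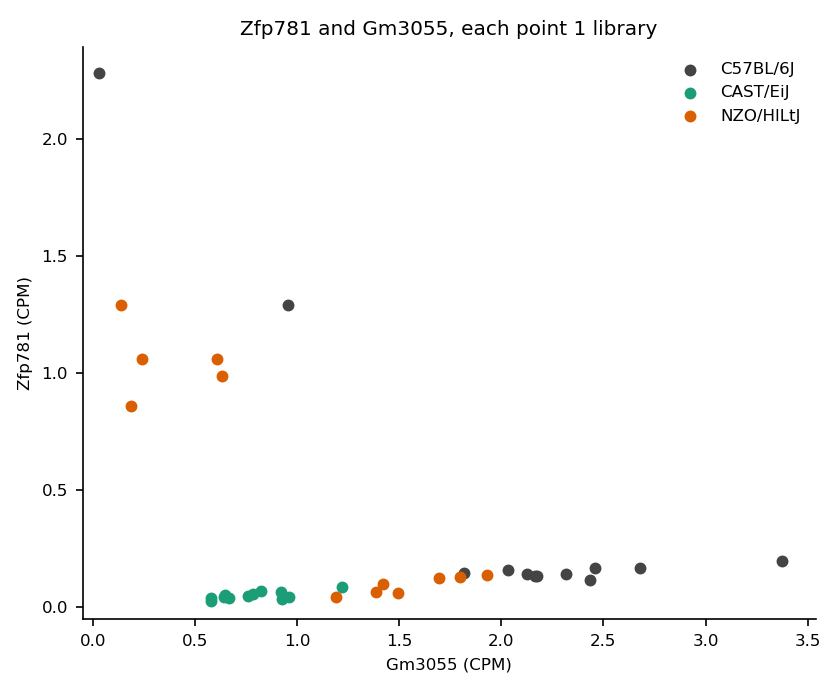
Level of Zfp781 (vertical axis) against that of Gm3055 (horizontal axis), both in CPM, with a point for each of the 36 libraries coloured by strain. The 7 libraries with 0.860 CPM or more of Zfp781 lie at 0.957 CPM or less of Gm3055, and CAST/EiJ is low on the vertical axis throughout.

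Zfp600 (chromosome 4, 146156824 to 146198755) had at most 9 counts in any library and was not tested. Its relative Rex2 shares 70.9% of its 50-base sequences. Rex2 was at 0.129 CPM or less in C57BL/6J, at 0.878 to 1.78 CPM in CAST/EiJ and at 0.716 to 1.55 CPM in NZO/HlLtJ. The summed counts of the pair were 4.75 higher in CAST/EiJ (adjusted p = 1.33e-15) and 4.56 higher in NZO/HlLtJ (adjusted p = 1.53e-14) than in C57BL/6J. C57BL/6J was thus the strain nearly without reads at this pair. For Zfp784 and Zfp865, which overlap on opposite strands of chromosome 7 and share 94.7% of the sequences of Zfp784, neither the single genes nor their sum was called between strains.

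Within C57BL/6J, Zfp950 (ENSMUSG00000074733; chromosome 19, 61053840 to 61140840) took 2 separate levels. It was at 14.6, 8.56 and 10.8 CPM in the female control libraries, and at 10.5, 56.3 and 12.6 CPM in the male control libraries. On HFHS it was at 54.9, 42.0 and 52.9 CPM in the females and at 12.8, 12.2 and 55.1 CPM in the males. So 7 libraries lay at or below 14.6 CPM and 5 at or above 42.0 CPM, with none between. Both levels occurred on both diets in males. In females all control libraries lay at the low level and all HFHS libraries at the high level. CAST/EiJ ran from 31.9 to 48.2 CPM and NZO/HlLtJ from 44.0 to 69.6 CPM (61.4 CPM without the library rich in pituitary transcripts) without such a gap. The widest gap among the 12 C57BL/6J libraries was measured with the 2 lowest and 2 highest of each gene left out. For Zfp950 it was 1.5 on the log2 scale, after adding 0.5 CPM. By this measure 12 of 20108 genes (0.0597%) had a wider gap. Splits that set off 2 libraries or fewer are not counted by it.

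The neighbours of Zfp950 on chromosome 19 showed no such split. Grk5, a kinase of G protein-coupled receptors, ran from 10.1 to 18.1 CPM in C57BL/6J, and Csf2ra, a cytokine receptor subunit, from 7.83 to 10.3 CPM. Zfp950 shares 0.85% of its 50-base sequences with other genes. Its strain differences mix the levels of C57BL/6J: NZO/HlLtJ was 1.11 higher (SE 0.23, adjusted p = 0.000641) and CAST/EiJ 0.59 higher (SE 0.23, adjusted p = 0.0336). The latter was not called when only the libraries of both strains were fitted (adjusted p = 0.0839), nor without the 3 low-Hox libraries (adjusted p = 0.0755). It was also lost when any 1 of 6 C57BL/6J libraries was left out (female control 2, male control 1 and 3, female HFHS 2, male HFHS 1 and 2), with adjusted p from 0.0514 to 0.0580.

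**Figure D4:**
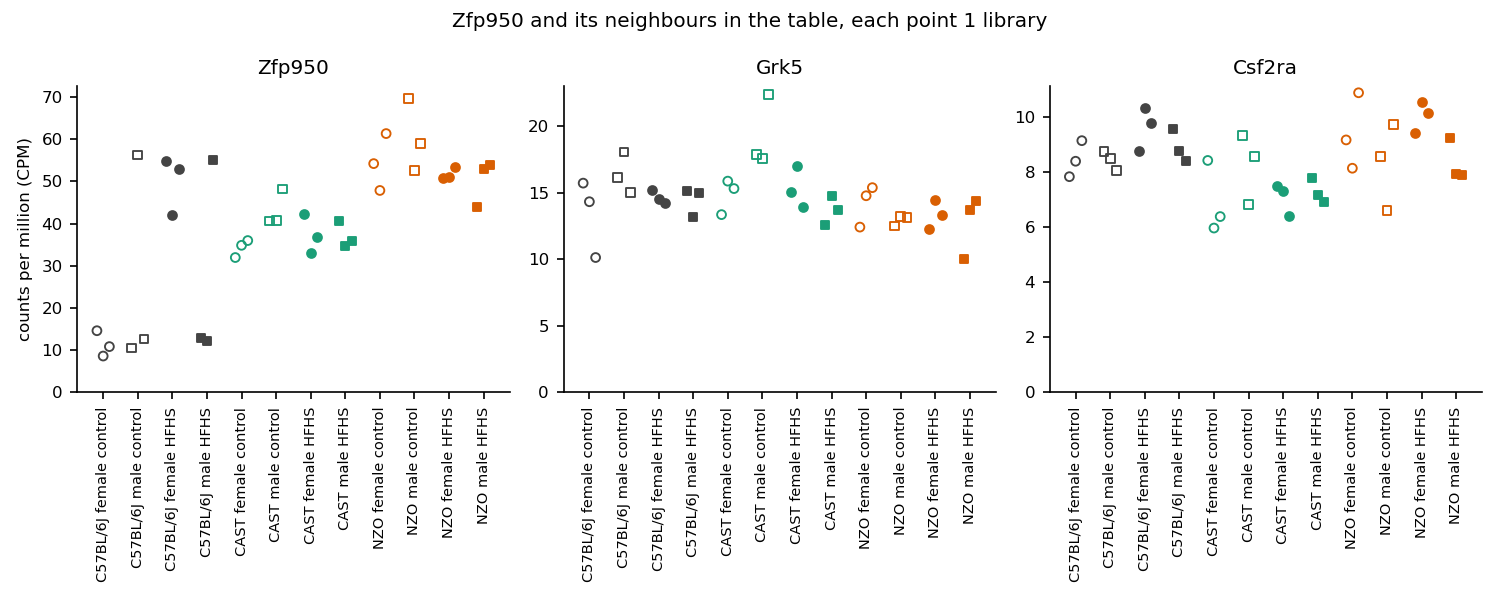
Level in CPM (vertical axis, from 0) of Zfp950 and of its neighbours Grk5 and Csf2ra in each library, by strain, sex and diet (horizontal axis), with circles for females, squares for males, open symbols for the control diet and filled symbols for HFHS. In C57BL/6J, Zfp950 sits at 8.56 to 14.6 CPM in 7 libraries and at 42.0 to 56.3 CPM in 5, while Grk5 and Csf2ra show no gap.

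By position, the differences of neighbours were compared pair by pair. There were 65 pairs of adjacent genes of the range within 1 Mb. Both genes of a pair were called in 6 pairs for NZO/HlLtJ minus C57BL/6J, 4 in the same direction and 2 in opposite directions. For CAST/EiJ minus C57BL/6J both were called in 16 pairs (9 the same, 7 opposite), and for NZO/HlLtJ minus CAST/EiJ in 17 pairs (8 the same, 9 opposite). Adjacent pairs over all genes were not counted. These numbers therefore do not show whether neighbours of the range differ from other neighbouring genes. The 60 tested genes inside clusters had 19, 31 and 29 calls in these comparisons (31.7%, 51.7% and 48.3%), and the 76 outside had 22, 46 and 30 (28.9%, 60.5% and 39.5%), beside 23.8%, 52.2% and 49.8% of all genes. The 122 tested genes of other names that lie within the clusters had 29, 68 and 60 calls (23.8%, 55.7% and 49.2%).

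The longest cluster, 11 genes from 21.4 to 22.9 Mb on chromosome 17, held differences of both signs. Zfp677 was 0.71 lower in CAST/EiJ than in C57BL/6J (SE 0.11, adjusted p = 2.15e-06 in edgeR's test), with 2.02 to 3.42 CPM against 2.71 to 5.86 CPM. In the same cluster Zfp820, at a mean of 1.96 CPM, was 0.90 higher in CAST/EiJ (adjusted p = 3.46e-05), Zfp947 0.63 higher (adjusted p = 4.25e-05) and Zfp760 0.37 higher (adjusted p = 0.000236). NZO/HlLtJ was higher than C57BL/6J for Zfp760 (0.57, adjusted p = 1.60e-06) and Zfp945 (0.36, adjusted p = 0.0102) and lower for Zfp758 (-0.61, adjusted p = 0.000687). Between NZO/HlLtJ and CAST/EiJ 8 of the 11 were called, with Zfp677 and Zfp760 higher in NZO/HlLtJ and the other 6 lower, beside 49.8% of all genes. Of the 11 tested genes of other names within this cluster 8 were called as well. Zfp948 and Zfp943 were called in none of the 3 comparisons. The other cluster of chromosome 17 has 6 genes from 32.8 to 33.0 Mb. None was called for NZO/HlLtJ minus C57BL/6J, beside 23.8% of all genes. For CAST/EiJ minus C57BL/6J 4 were called, beside 52.2% of all genes, with Zfp799 higher (0.29) and Zfp870 (-0.56), Zfp811 (-0.20) and Zfp952 (-0.18) lower. Of the 4 tested genes of other names there, 3 were called in the latter comparison.

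The cluster of 6 genes from 47.8 to 48.6 Mb on chromosome 6 holds Zfp783. For CAST/EiJ minus C57BL/6J, 4 of its genes were called, beside 52.2% of all genes, with Zfp783 and Zfp956 lower and Zfp775 (0.42) and Zfp786 (0.22) higher. Of the 14 tested genes of other names within this cluster 13 were called as well, 8 higher and 5 lower. Zfp746, known as PARIS, a substrate of parkin that represses PGC-1alpha, is in this cluster too and differed by 0.07 or less between strains, with no call. On chromosome 7 from 43.3 to 43.6 Mb, Zfp658 was the only called gene of its cluster for NZO/HlLtJ, and its neighbours Zfp715 and Zfp719 differed from C57BL/6J by -0.02 and 0.11 there, not called. In the cluster of 9 genes at 127.2 to 127.9 Mb all 4 calls for CAST/EiJ minus C57BL/6J were higher, from 0.12 for Zfp768 to 0.30 for Zfp668. Of the 31 tested genes of other names there, 12 were called, 6 higher and 6 lower.

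On chromosome 8 the cluster from 69.2 to 69.8 Mb and that from 71.9 to 72.0 Mb had calls in opposite directions against C57BL/6J. In the former, 6 genes, the calls for CAST/EiJ minus C57BL/6J were lower for Zfp930 (-0.40), Zfp866 (-0.40) and Zfp869 (-0.15), and those for NZO/HlLtJ minus C57BL/6J were lower for Zfp963 (-0.40) and Zfp964 (-0.20). In the latter, 4 genes, CAST/EiJ was higher for Zfp882 (0.39), Zfp709 (0.24) and Zfp961 (0.21), and NZO/HlLtJ for Zfp709 (0.42) and Zfp617 (0.16). For NZO/HlLtJ minus CAST/EiJ the directions were mixed, with 1 higher and 1 lower in the former and 2 higher and 1 lower in the latter. No test compared the clusters, whose directions against C57BL/6J rest on 2 or 3 calls each. Of all genes, 23.8% were called for NZO/HlLtJ and 52.2% for CAST/EiJ against C57BL/6J. Among the 5 tested genes of other names in the former cluster, 2 were called lower in NZO/HlLtJ, while in CAST/EiJ 2 were called higher and 1 lower. The only 1 in the latter was called lower in NZO/HlLtJ and higher in CAST/EiJ. Zfp963 shares 38.7% of its 50-base sequences with Gm20422 and Zfp617 37.5% with Gm18180. Their sums with these genes were called in the same direction for NZO/HlLtJ minus C57BL/6J (-0.40 and 0.15). Gm20422 was at 0.349 CPM or less and Gm18180 at 2.18 CPM or less. The sums could thus hardly differ from the single genes and do not settle how shared reads were split.

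In the remaining clusters, on chromosomes 7, 9 and 13, called differences were found too, beside 23.8% of all genes for NZO/HlLtJ minus C57BL/6J and 52.2% for CAST/EiJ minus C57BL/6J. On chromosome 7 from 6.1 to 7.2 Mb, Zfp772 differed by -0.51 between NZO/HlLtJ and C57BL/6J (SE 0.06, adjusted p = 2.19e-07), while Zfp954 and Zfp667 were 0.24 and 0.19 higher in NZO/HlLtJ. On chromosome 9 from 22.1 to 22.3 Mb, Zfp809, known for silencing murine leukemia virus through Trim28, had 4.58 to 6.23 CPM in C57BL/6J and 4.77 to 7.10 CPM in CAST/EiJ, which overlapped. Its difference of 0.17 was called (SE 0.07, adjusted p = 0.0308). On chromosome 13 from 67.0 to 67.7 Mb, Zfp759 (0.41) and Zfp748 (0.33) were higher and Zfp953 (-0.39) and Zfp712 (-0.23) lower in CAST/EiJ than in C57BL/6J. Zfp708 of that cluster shares 94.6% of its sequences with Gm28557, and neither it nor the sum was called.

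Outside clusters, Zfp647 (chromosome 15) was higher in both other strains than in C57BL/6J, by 0.73 in NZO/HlLtJ (adjusted p = 5.89e-06 in edgeR's test) and 0.72 in CAST/EiJ (adjusted p = 2.38e-06). Its ranges were 1.33 to 2.85 CPM in C57BL/6J, 2.75 to 4.22 CPM in CAST/EiJ and 2.37 to 4.24 CPM in NZO/HlLtJ, so that C57BL/6J met the others only at its top. Zfp697 (chromosome 3) was lower in both, by a log2 difference of -0.59 and -0.40. Zfp691 (chromosome 4) was 0.53 higher in NZO/HlLtJ than in C57BL/6J (adjusted p = 2.93e-06) and 0.46 higher than in CAST/EiJ. In CAST/EiJ, Zfp791 (0.68), Zfp850 (0.62), Zfp873 (0.61) and Zfp661 (0.51) were higher than in C57BL/6J, and Zfp626 (-0.46) and Zfp619 (-0.45) were lower. Zfp850 at 9.78 to 13.4 CPM in CAST/EiJ lay above every C57BL/6J library (6.35 to 9.08 CPM).

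The genes through which KRAB zinc finger proteins act were described from a list of 30 symbols, of which 28 were in the table and tested. Besides co-repressors the list holds the zinc finger genes Zfp57 and Zfp445, which also belong to Zfp1 to Zfp599. Between NZO/HlLtJ and C57BL/6J 6 were called, 4 higher and 2 lower. Between CAST/EiJ and C57BL/6J 11 were called, 7 higher and 4 lower, and between NZO/HlLtJ and CAST/EiJ 9 were called, 4 higher and 5 lower. These are 21.4%, 39.3% and 32.1% of the list, below the 23.8%, 52.2% and 49.8% of all genes, and the median absolute log2 difference was 0.06, 0.09 and 0.07. Trim28 itself, the scaffold, was 0.17 higher in CAST/EiJ than in C57BL/6J (SE 0.04, adjusted p = 0.000423). Setdb1, the H3K9 methyltransferase it recruits, was 0.11 higher in NZO/HlLtJ (adjusted p = 0.0238), and Pphln1, a subunit of the HUSH silencing complex, was lower in both NZO/HlLtJ (-0.26, adjusted p = 6.15e-05) and CAST/EiJ (-0.40, adjusted p = 1.67e-08). The de novo DNA methyltransferase Dnmt3b, 1.18 higher in CAST/EiJ (SE 0.15, adjusted p = 1.26e-07), was the only gene of the list that was called past 2-fold.

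Diet was compared within each strain and over all 3, to see whether the genes respond to HFHS. In edgeR's test 0 of the 136 genes were called in C57BL/6J (0% of all genes were), 0 in CAST/EiJ (0.269% of all genes), 0 in NZO/HlLtJ (0.0497%), 0 over the 3 strains (0.109%) and 0 for the interaction of strain and diet (0%). At an unadjusted p under 0.05 there were 4, 17, 8, 6 and 6 of them. For the 4 diet contrasts that is 2.94%, 12.5%, 5.88% and 4.41%, beside 2.61%, 18.5%, 10.0% and 15.2% of all genes. For the interaction it is 6 of 136, beside 1726 of all 20108 genes. DESeq2 called 1 of the genes in CAST/EiJ, Zfp768, and 0 in the other comparisons, and limma on the deposited log2 values called 0. The median diet difference was 0.02 in C57BL/6J, -0.04 in CAST/EiJ and -0.03 in NZO/HlLtJ, and the central 90% of the genes lay from -0.16 to 0.19, from -0.25 to 0.18 and from -0.23 to 0.20. The median SE was 0.10 in each strain.

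**Figure D5:**
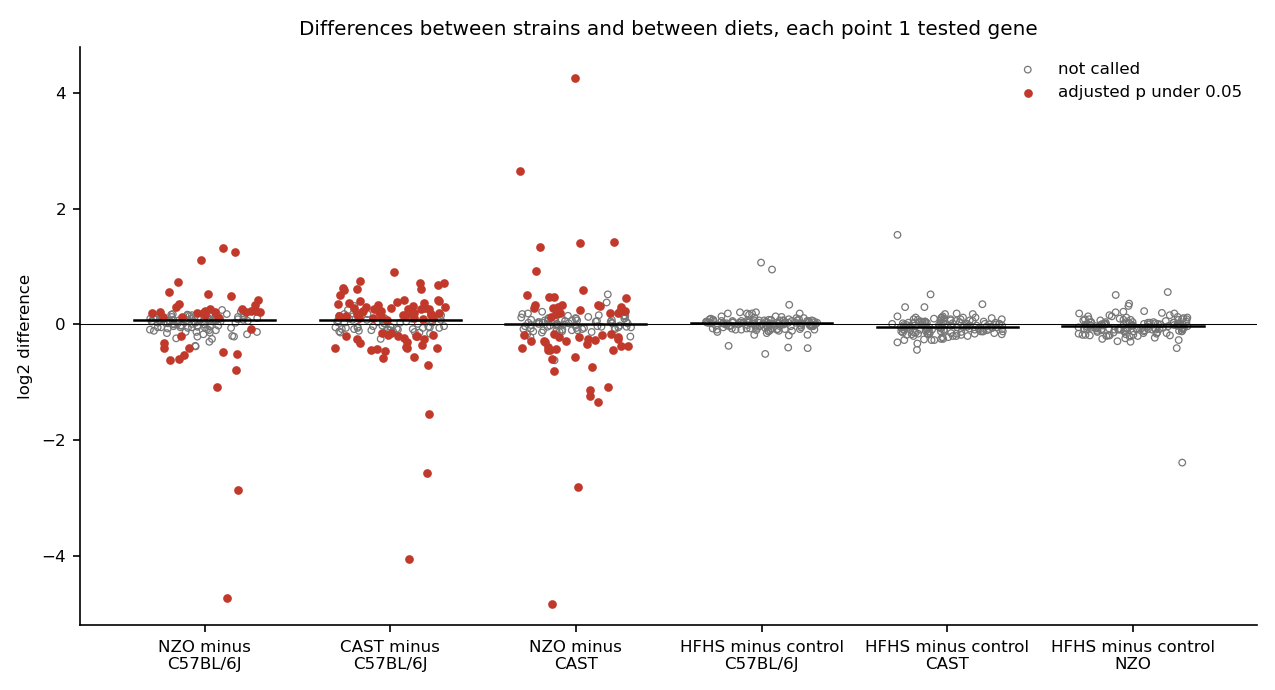
Log2 difference (vertical axis) of the 136 tested genes in the 3 strain comparisons and in the comparison of HFHS with control in each strain (horizontal axis), with filled points called and a line at the median. Called genes occur in the strain comparisons only, and the points farthest from 0 for diet, Zfp781 at -2.39 in NZO/HlLtJ and Zfp872 at 1.55 in CAST/EiJ, were not called.

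In CAST/EiJ, the gene of the range with the smallest p for diet was Zfp768. It had 15.02, 15.5, 14.4, 15.98, 15.8 and 17.4 CPM on the control diet and 13.7, 13.8, 13.4, 14.8, 13.1 and 13.0 CPM on HFHS, females before males. The groups overlapped by 1 library on each side. The difference was -0.20 (SE 0.06, adjusted p = 0.0873), and DESeq2 gave -0.21 with an adjusted p of 0.0336. Without CAST/EiJ male control 2, edgeR called Zfp956 (-0.35), Zfp768 (-0.22) and Zfp831 (0.77) in this strain. The Hox sum ran from 198.6 to 273.9 CPM on HFHS and from 0.155 to 207.5 CPM on the control diet in CAST/EiJ. All 12 Hox genes had a positive diet difference in each strain, with medians of 0.72 in C57BL/6J, 1.90 in CAST/EiJ and 1.14 in NZO/HlLtJ, and none was called by edgeR (0, 11 and 0 of them at an unadjusted p under 0.05). Of 5 red blood cell genes, 4 were called lower on HFHS in CAST/EiJ, from -2.91 for Alas2 to -2.67 for Hbb-bs, a beta globin. The astrocyte marker Gfap was called higher there (1.09, adjusted p = 0.0335). What these had to do with the zinc finger genes was not tested. With the Hox level as a covariate, and without the 3 low-Hox libraries, 0 genes of the range were called.

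In C57BL/6J the smallest p of edgeR's quasi-likelihood test was that of Zfp950, with a diet difference of 1.07 (SE 0.33, adjusted p = 1.0), and both of its levels occurred on each diet. In females its control libraries were all low and its HFHS libraries all high, while males held both levels on each diet. Without C57BL/6J male control 2 the diet difference was 1.67 and called (adjusted p = 0.0190). In NZO/HlLtJ it was that of Zfp781, at 0.101 to 1.29 CPM on the control diet and 0.0426 to 0.860 CPM on HFHS, a difference of -2.39 (SE 0.70, adjusted p = 0.194) that carries the uncertain split with Gm3055. Over the 3 strains it was that of Zfp652, a -0.10 change (SE 0.03, adjusted p = 0.162). For the comparison of males with females over the strains, edgeR called 0 of the 136, beside 0.0796% of all genes. An unadjusted p under 0.05 was found for 8 of the 136, beside 1023 of all 20108 genes, and DESeq2 and limma also called 0.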

How the data were processed

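The authors deposited expected counts per gene (estimates that can be fractional) and a table of log2 values from a variance-stabilising transformation. The submitters' processing notes name GRCm38 and DESeq2. Which aligner, counting program, strand setting and annotation release were used is not given in the sources used here. How reads of CAST/EiJ and NZO/HlLtJ were placed on a C57BL/6J-based build was not tested. In each library, 18.7% to 22.7% of the values were off a whole number by over 1e-06, and all were rounded. Genes were kept by filterByExpr (minimum count 10, minimum total 15), scaled by TMM and fitted with edgeR 4.0.16 (glmQLFit with robust moderation, limma 3.58.1, R 4.3.3) with a mean for each of the 12 groups over 36 libraries and 24 residual degrees of freedom. On simulated counts the fit recovered most of the 2-fold changes put in. The simulation used the same spread for all genes and no tissue differences between libraries. Changes as small as the median differences given above were not simulated, so it does not cover them. DESeq2 1.42.0 on the counts and limma on the deposited log2 values were alternatives, as were another scaling, no filter, fewer libraries, a Hox covariate and each library left out.

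Coordinates are those of the deposited annotation. Shared sequence is the share of 50-base sequences of a gene's exons (gencode vM21) found in another gene. Named genes were, for each strain comparison, the 10 largest rises and falls among called genes with an average log2 CPM of 0 or more, the extremes of each cluster and other genes of clusters described, the 5 smallest p for diet, genes near 0 in a strain, and the 5 highest and lowest per length. Of the co-repressor and marker lists, examples of called genes are given. The genes, lists and rules were chosen with earlier results of these data known.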

Additional observations from a re-analysis of the deposited data

Results flagged for a closer look

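In 30 groups of 6 values of named genes, each of 1 strain and diet, a library far from the other 5 was searched for. Values with a common spread give this by chance in about 1 in 20 groups. The genes were named with results of these data known. Zfp950 and Zfp781 also fell into separate groups of libraries, as described above. That rate is therefore no firm reference here. There were 3 such libraries. Zfp950 was at 56.3 CPM in C57BL/6J male control 2, with the next control library of that strain at 14.6 CPM and the lowest at 8.56 CPM. Zfp787 was at 15.1 CPM in C57BL/6J male HFHS 3, and the other 5 HFHS libraries of the strain lay from 11.7 to 12.1 CPM. The C57BL/6J control libraries of Zfp787 ran from 12.6 to 15.1 CPM. Zfp781 was at 0.860 CPM in NZO/HlLtJ female HFHS 1, with the next HFHS library at 0.128 CPM and the lowest at 0.0426 CPM.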

How the results depend on the processing

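The numbers of called genes of the range between strains stayed within 1.5 times those given under each alternative run: DESeq2, limma, RLE scaling, no filter, only the libraries of the strains compared, the Hox covariate, no low-Hox libraries and only genes with under 20% shared sequence. So they did in 2 alternatives added after the data were seen, the fit without robust moderation and sums with the gene sharing most sequence. They ran from 36 to 43 for NZO/HlLtJ minus C57BL/6J, 69 to 80 for CAST/EiJ minus C57BL/6J and 48 to 65 for NZO/HlLtJ minus CAST/EiJ. The lowest of the last came with only the less shared genes, which are 119 of the 136. Their 36, 70 and 48 calls are 30.3%, 58.8% and 40.3% of 119, beside 30.1%, 56.6% and 43.4% of 136. With each library left out the numbers called ran from 34 to 44, 73 to 81 and 56 to 64. For diet, DESeq2 called 1 gene in CAST/EiJ against 0, and leaving out a library gave 0 to 1 in C57BL/6J, 0 to 3 in CAST/EiJ and 0 to 0 in NZO/HlLtJ. The cause was not tested. Joining distances of 0.5 and 2 Mb gave 9 and 11 clusters. None of the 80 strain and diet differences of single genes that were refitted changed direction. Zfp781 for NZO/HlLtJ minus C57BL/6J was not among them. Its difference was 0.08, not called, and -0.67 when summed with Gm3055. No paired analysis was possible because the labels give no replicate numbers. RLE scaling moved the median of all genes by at most 0.012. A level under about 0.1 CPM is a handful of counts at these depths, which limits what can be said of Zfp600, Zfp607 in NZO/HlLtJ, Zfp781 and Zfp872.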
